A study of Drosophila melanogaster with 42 samples.

Results

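Ctr9 and Herc4 are neighbouring protein-coding genes on the left arm of the third chromosome of Drosophila melanogaster, with 1 other gene, sturkopf, between them. They were followed in the head and thorax of adult males at 8 ages in Indy206 heterozygotes and in matched controls. The members are the spots of the array whose single gene symbol in the platform annotation is Ctr9 or Herc4. Each gene had 1 such spot, so 2 spots are described out of 10827 spots with a single gene, which cover 9904 genes. Both genes were chosen from their higher level in Indy206 than in control flies over all ages. Their genotype difference is therefore given as a description with no test, and the tests concern age, the change of the difference with age, and the relation between the genes.

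The study asked how transcripts change over life in flies with reduced Indy, a plasma membrane citrate transporter gene, and in controls. Indy206 flies carried the Indy206 allele over a Canton-S chromosome (Indy206/CS), and controls carried the matched line 2216 over Canton-S (2216/CS), so all flies were heterozygous with Canton-S. Flies were 5, 10, 20, 30, 40, 50, 70 or 80 days old. Each of 42 two-colour arrays, 21 per genotype and 2 or 3 per genotype and age, compared the pooled RNA of 15 males with a common reference pooled from the RNA of control flies at all ages. Each value is a log ratio, likely to base 2 and of the sample to this reference, though no source used here states the base or direction. On that reading 0 means the level of that pool and not an absolute amount, and every direction given here rests on it. Nor was 0 the level of the control arrays for every gene. Of the 21 control arrays, Herc4 was below 0 on 19, Indy on 20 and Ctr9 on 6. The reason was not tested.

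Ctr9 is a scaffold subunit, built of tetratricopeptide repeats, of the Paf1 complex, which travels with RNA polymerase II along transcribed genes. In yeast and animals this complex promotes elongation and the histone ubiquitination and methylation that accompany it. Herc4 belongs to the HECT family of ubiquitin ligases, which accept ubiquitin on a cysteine of their catalytic domain and pass it to a substrate. It also carries the RCC1-like repeats that give HERC proteins their name.

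Indy, the altered gene, had a log2 ratio between -1.62 and -0.67 on Indy206 arrays and between -0.49 and 0.11 on control arrays. Photoreceptor markers had a median above 0 on all 42 arrays (5 of 8 measured), and testis and accessory gland markers one below 0 on all 42 (6 of 8 and 6 of 7 measured). On control arrays the accessory gland median ran from -4.37 to -1.23 and the photoreceptor median from 0.32 to 1.76. For these lists 0 was thus not the level of the control arrays, and the reason was not tested. Muscle markers (6 of 8 measured), of the main tissue of the thorax, had a median above 0 on 29 arrays and below 0 on 13. Neuron markers (4 of 6 measured) were below 0 on 6 arrays, and midgut markers (8 of 8 measured) above 0 on 10. The lists differed by age: the testis median was -0.23 and -0.20 on the Indy206 day 5 arrays, against -2.40 to -0.67 on the other Indy206 arrays. On control arrays it ran from -2.18 to -0.26, with -0.77 and -0.37 at day 5 and the highest value at day 20. The muscle median was 0.95 and 0.86 on the Indy206 day 5 arrays, against -0.15 to 0.43 on the other Indy206 arrays, and it was 1.08 and 0.75 on the control day 5 arrays. Those Indy206 day 5 arrays also had the lowest median correlations with all other arrays, 0.61 and 0.62, and results that rest on them are given with and without them. In whole tissue, a change in the share of a cell type and a change of RNA per cell cannot be told apart.

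Ctr9 was near the reference in Indy206 flies at day 5 and above it at every later age. Control means lay between -0.076 at day 30 and 0.28 at day 40. At day 5 the 2 Indy206 arrays read 0.068 and -0.034 and the 2 control arrays -0.15 and 0.16. The genotypes overlapped fully at this age. At day 10 Indy206 arrays read 0.36 and 0.38, against -0.30 and 0.16 in controls. At day 20 they read 0.75 and 0.59 in Indy206 flies, against 0.11, 0.030 and 0.041 in controls. From day 10 on, every Indy206 array lay above every control array of its age. At day 30 the Indy206 values were 0.90, 0.95 and 0.41 and the control values -0.34, -0.066 and 0.18. At day 40 they were 1.02, 0.86 and 0.77 in Indy206 flies and 0.46 and 0.10 in controls. The highest array of each genotype thus fell at day 40. At day 50 the Indy206 arrays read 0.86, 0.97 and 1.01, and the control arrays 0.20, 0.15 and 0.041. At day 70 they read 0.61, 0.87 and 0.68 in Indy206 flies and 0.043, 0.036 and -0.010 in controls. At day 80 they read 0.48, 0.58 and 0.50 in Indy206 flies and -0.25, 0.076 and 0.14 in controls. The Indy206 values at day 80 were below those at days 40 and 50 without overlap, but still above the controls of the same age.

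**Figure D1:**
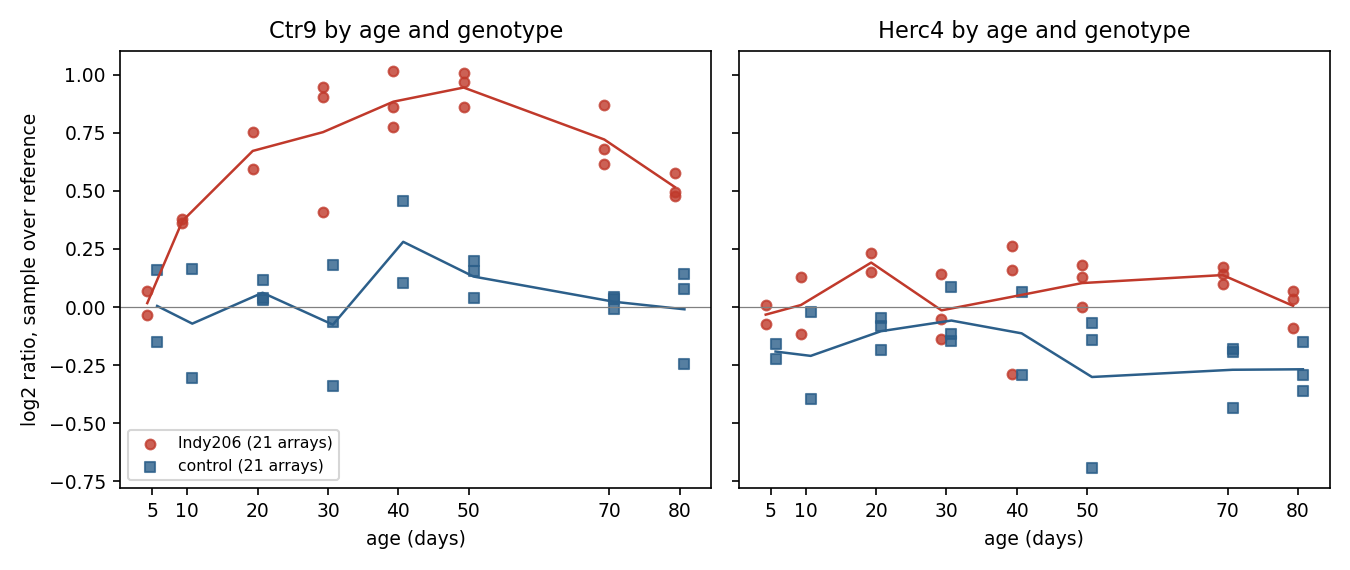
Log2 ratio of Ctr9 (left) and Herc4 (right) against age in days. Points are single arrays, circles for Indy206 and squares for control, and lines join the means of each age. Ctr9 in Indy206 flies climbs from 0.017 at day 5 to 0.95 at day 50 and stands at 0.52 at day 80, while the control means lie between -0.076 and 0.28. Herc4 stays within a narrower band in both genotypes.

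Averaged over ages, Ctr9 was higher in Indy206 flies by a log2 difference of 0.57 ± 0.053 (SE), or 1.48-fold. The array mean was 0.65 ± 0.30 (SD, n = 21) in Indy206 flies and 0.039 ± 0.18 (SD, n = 21) in controls, and 16 of 21 Indy206 arrays lay above the highest control array. Over all 19077 units tested (single genes, and spots with several genes or none), the same contrast called 0.351% at a limma adjusted p under 0.05, and 0.131% were called higher. At 7 of 8 ages the genotypes did not overlap for Ctr9, which 0.0315% of units reached with Indy206 on the higher side. These shares describe the contrast that chose the gene and are not a test of it. The difference was 0.012 ± 0.17 (SE) at day 5, 0.44 ± 0.17 (SE) at day 10 and 0.61 ± 0.15 (SE) at day 20. The day 10 value was 0.21 without the first of its 2 control arrays and 0.68 without the other, and the day 5 value ran from -0.14 to 0.17 with single arrays left out. The difference was 0.83 ± 0.14 (SE) at day 30, 0.60 ± 0.15 (SE) at day 40 and 0.81 ± 0.14 (SE) at day 50. At days 70 and 80 it was 0.70 ± 0.14 (SE) and 0.53 ± 0.14 (SE).

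**Figure D2:**
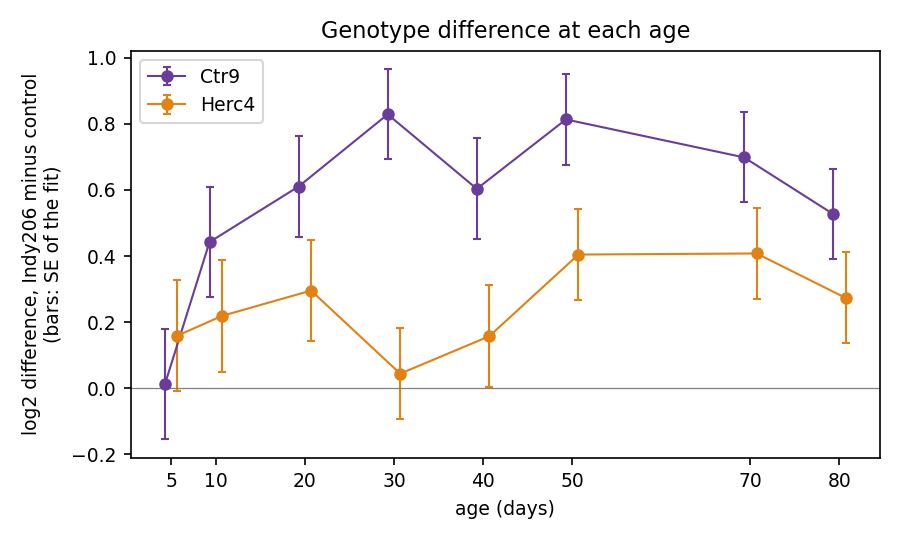
Log2 difference of Indy206 minus control at each age in days for Ctr9 and Herc4, with bars for the SE of the fitted difference. Ctr9 starts at 0.012 at day 5 and lies between 0.44 and 0.83 at the later ages. Herc4 lies between 0.044 and 0.41.

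Ctr9 changed with age. Over the mean of both genotypes, the moderated F test of any difference among the 8 ages gave F = 5.88 (limma adjusted p = 0.0030), a call shared by 22.9% of units. Within Indy206 flies it gave F = 7.58 (limma adjusted p = 0.0015), against 10.4% of units called. Within control flies it gave F = 1.12 (limma adjusted p = 0.68), against 6.91% called. These tests within genotypes were added after the values by age were seen. A straight line had a slope of 0.054 ± 0.015 (SE) per 10 days in Indy206 flies (limma adjusted p = 0.0097, 19.4% of units called in either direction and 7.44% rising). In controls the slope was 0.0072 ± 0.015 (SE) per 10 days (limma adjusted p = 0.86), and 8.68% of units were called, 4.67% rising and 4.01% falling.

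The call for a straight-line rise in Indy206 flies rested on the low day 5 arrays. Without day 5 the slope in Indy206 flies was 0.015 ± 0.017 (SE) per 10 days (limma adjusted p = 0.67), and the F test within Indy206 gave F = 3.6 (limma adjusted p = 0.11). The later course was not straight. Indy206 arrays read 0.36 to 0.38 at day 10, 0.86 to 1.01 at day 50 and 0.48 to 0.58 at day 80. The F test over both genotypes kept its call without day 5 (limma adjusted p = 0.043). With the testis and accessory gland level of each array as a covariate, the Indy206 slope was 0.047 ± 0.020 (SE) per 10 days (limma adjusted p = 0.23), while the F test within Indy206 kept its call (limma adjusted p = 0.018). The muscle markers, also high at day 5, were not in this covariate, and their part in the result was not tested.

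Whether the age course of Ctr9 differed between the genotypes was tested directly and was not called. The F test of genotype by age gave F = 2.76, with an unadjusted p of 0.025 and an adjusted p of 1.00 (limma), and 0.0105% of units were called. The slope was steeper in Indy206 flies by 0.047 per 10 days, with a 95% interval of 0.0047 to 0.090 (limma, unadjusted p = 0.031, adjusted p = 0.83). No unit was called for a difference in slope (0% of 19077), and 1065 had an unadjusted limma p under 0.05. Without day 5 the difference in slope was 0.0088 ± 0.024 (SE) per 10 days and the genotype by age F was 0.96, neither called. The mean slope of both genotypes was 0.031 ± 0.010 (SE) per 10 days (limma adjusted p = 0.028), against 25.2% of units called in either direction and 10.1% rising. Without day 5 it was 0.010 (limma adjusted p = 0.64), without the Indy206 day 5 arrays alone 0.011 (limma adjusted p = 0.57), and with the marker covariate 0.025 (limma adjusted p = 0.39). Among single arrays, the call was lost without Indy206 day 5 replicate 2 (slope 0.029, adjusted p = 0.060), control day 5 replicate 1 (0.026, adjusted p = 0.090), control day 10 replicate 1 (0.024, adjusted p = 0.083) or control day 80 replicate 3 (0.028, adjusted p = 0.062), all by limma.

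In Indy206 flies Herc4 was above the reference on 14 of 21 arrays, with a mean of 0.055 against 0.65 for Ctr9. In controls Herc4 lay below the reference on 19 of 21 arrays, with a mean of -0.19 against 0.039 for Ctr9. At day 5 the Indy206 arrays read -0.074 and 0.0086, against -0.16 and -0.23 in controls. At day 10 they read -0.11 and 0.13 in Indy206 flies, and -0.40 and -0.023 in controls. The genotypes did not overlap at day 5 and did at day 10. At day 20 the Indy206 arrays read 0.23 and 0.15 and the control arrays -0.18, -0.083 and -0.046. At day 30 they read 0.14, -0.14 and -0.051 in Indy206 flies, and 0.088, -0.12 and -0.15 in controls. At day 40 they read 0.26, -0.29 and 0.16 in Indy206 flies, and 0.064 and -0.29 in controls. Days 30 and 40 were thus mixed, with Indy206 day 40 replicate 2 near the lower control array. At day 50 the Indy206 arrays read 0.18, 0.13 and -0.0017, against -0.070, -0.14 and -0.69 in controls. The last of these controls was the lowest Herc4 value of all 42 arrays. At day 70 the values were 0.10, 0.17 and 0.14 in Indy206 flies, and -0.44, -0.19 and -0.18 in controls. At day 80 they were 0.071, -0.090 and 0.035 in Indy206 flies, and -0.36, -0.15 and -0.29 in controls. At days 50, 70 and 80 every Indy206 array lay above every control array of its age.

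Averaged over ages, Herc4 was higher in Indy206 flies by 0.24 ± 0.053 (SE), a 1.19-fold difference. The array mean was 0.055 ± 0.14 (SD, n = 21) in Indy206 flies and -0.19 ± 0.18 (SD, n = 21) in controls. The genotypes did not overlap at 5 of 8 ages, which 0.147% of units reached with Indy206 higher, and 11 of 21 Indy206 arrays lay above the highest control array. The difference ranged from 0.044 ± 0.14 (SE) at day 30 to 0.41 ± 0.14 (SE) at day 70. At day 50 it was 0.40 ± 0.14 (SE), and 0.21 without control day 50 replicate 3. With single arrays left out it ran from -0.035 (without Indy206 day 30 replicate 1) to 0.12 at day 30, from -0.020 (without control day 40 replicate 2) to 0.33 at day 40, and from 0.032 (without control day 10 replicate 1) to 0.41 at day 10, so its direction at days 30 and 40 turned on 1 array.

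No change of Herc4 with age was called. The F test over ages gave F = 0.57 for the mean of both genotypes (limma adjusted p = 0.86). The slope was 0.0066 per 10 days in Indy206 flies (95% interval -0.024 to 0.037, limma adjusted p = 0.83) and -0.017 in controls (95% interval -0.047 to 0.013, limma adjusted p = 0.59). The genotype by age test gave F = 0.80 (limma adjusted p = 1.00), and the difference in slope was 0.024 per 10 days with a 95% interval of -0.019 to 0.067 (limma adjusted p = 0.86).

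The 16 levels of Ctr9 were ordered by their means. The 7 Indy206 groups from day 10 on took the top places, from 0.95 ± 0.076 (SD, n = 3) at day 50 to 0.37 ± 0.013 (SD, n = 2) at day 10. The day 40 controls, at 0.28 ± 0.25 (SD, n = 2), came next, and the Indy206 day 5 flies, at 0.017 ± 0.072 (SD, n = 2), stood at rank 12 among the controls. The lowest was the control group of day 30, at -0.076 ± 0.26 (SD, n = 3). Gaps between neighbours in this order were at most 0.15, or 1.00 SE of the gap. Sorting keeps such gaps small, so they do not show whether groups farther apart differ. Indy206 arrays at day 50 (0.86 to 1.01) and at day 80 (0.48 to 0.58), for example, did not overlap. For Herc4 the 8 Indy206 groups came first, from 0.19 ± 0.057 (SD, n = 2) at day 20 to -0.033 ± 0.058 (SD, n = 2) at day 5. The 8 control groups followed, from -0.058 ± 0.13 (SD, n = 3) at day 30 to -0.30 ± 0.34 (SD, n = 3) at day 50. Its largest gap between neighbours was 0.078, and no gap passed 0.459 SE.

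Across all 42 arrays Ctr9 and Herc4 had a Pearson correlation of 0.60, which holds the genotype difference that chose both genes and is given without a test. Within each genotype the relation was weaker. In Indy206 flies Pearson's r was 0.27 (permutation p = 0.23) and Spearman's rho 0.34 (permutation p = 0.13), n = 21. In control flies r was 0.21 (permutation p = 0.37) and rho 0.21 (permutation p = 0.36), n = 21. With the mean of each genotype and age removed, r was 0.24 (permutation p = 0.25) and rho 0.22 (permutation p = 0.31) over 42 arrays. Without the 2 arrays farthest from the median of Ctr9, r was 0.18 in Indy206 flies, 0.32 in controls and 0.33 within groups. The permutation tests were two-sided with 100000 resamples, and over a family of 9 relations the adjusted p was 0.45, 0.46 and 0.45 for these values of r, and 0.40 for each rho. Within a genotype the arrays were shuffled across ages, so those p-values treat arrays of the same age as independent. With group means removed, arrays were shuffled within groups only. Without Indy206 day 40 replicate 2 the Indy206 r was 0.44 (permutation p = 0.049), and without control day 30 replicate 1 the control r was 0.46 (permutation p = 0.047), both unadjusted.

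**Figure D3:**
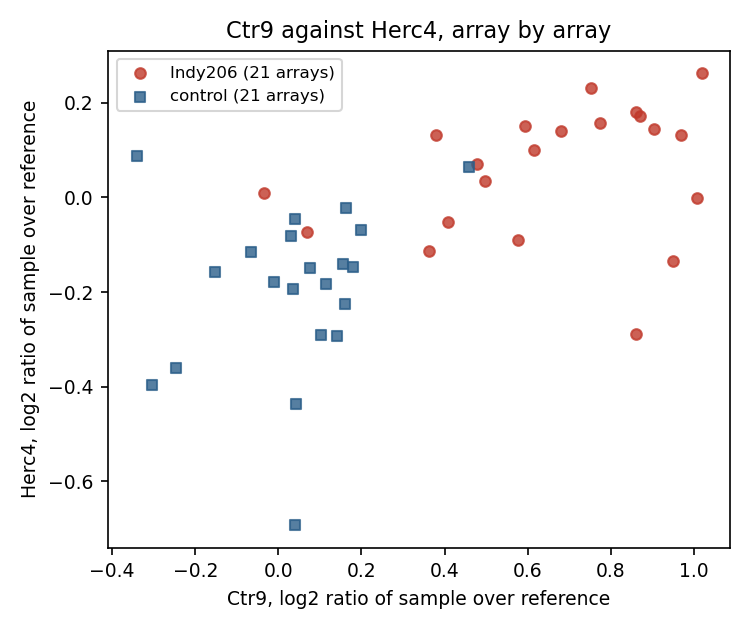
Herc4 against Ctr9, both as log2 ratios of sample over reference, with a point for each of 42 arrays, circles for Indy206 and squares for control. The Indy206 points lie to the right of and above most control points, and within either genotype the points scatter widely (r = 0.27 in Indy206 and 0.21 in control).

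The other 6 relations of the family set each gene against Indy itself and were added after the data were seen. None passed after adjustment. For Ctr9 with Indy, r was -0.35 in Indy206 flies (permutation p = 0.11, adjusted p = 0.45) and -0.095 without the 2 arrays farthest from the median, and it was -0.19 in controls (permutation p = 0.41, adjusted p = 0.46). For Herc4 with Indy, r was -0.28 in Indy206 flies (permutation p = 0.22, adjusted p = 0.45) and 0.38 in controls (permutation p = 0.092, adjusted p = 0.45). With group means removed, r was -0.13 for Ctr9 and 0.056 for Herc4 (permutation p = 0.32 and 0.81, adjusted p = 0.46 and 0.81).

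The genes most like Ctr9 over the 42 array values were CG15818 at r = 0.73, CG46491 at 0.70, Iml1 at 0.68, CG5160 at 0.65 and Ude at 0.65. Iml1 encodes a subunit of the GATOR complex that restrains TORC signalling, and Ude a uracil-DNA degrading factor. CG15818 was higher in Indy206 flies by 1.66 ± 0.13 (SE), and CG46491 by 0.57 ± 0.058 (SE). Herc4 stood at rank 9 of 9903 genes on this measure, which holds the genotype difference. For Herc4 the highest were teq at 0.75, a serine protease gene, syd at 0.70, a kinesin adaptor gene, and trol at 0.65, the perlecan gene. Golgin245 followed at 0.64 and CG5726 at 0.63, and Ctr9 stood at rank 18. Of the genes named for Herc4, teq differed most between genotypes, at 0.67 ± 0.094 (SE), and syd by 0.097 ± 0.061 (SE).

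With the group means removed, other genes headed both orders. For Ctr9 they were CG3726 at 0.79, CG11617 at 0.76, the LIM domain gene Lmpt at 0.75, the splicing factor gene Prp39 at 0.74 and CG6729 at 0.73. For Herc4 they were CG30015 at 0.83, alpha-Man-IIb at 0.83, CG2225 at 0.80, CG9674 at 0.80 and CG4294 at 0.77. On this measure Herc4 stood at rank 1659 of 9903 for Ctr9, and Ctr9 at rank 1939 for Herc4. These are descriptions over 42 arrays that share a reference and any array-wide effect.

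Of 11 neighbours measured, 5 on either side of the pair and sturkopf between them, none was called for genotype by limma in either direction. Of these, 2 had an unadjusted limma p under 0.05, beside 1258 of all 19077 units. With 0.351% of all units called, a count of 0 among 11 genes is near the background and is not a result about them. Their median difference was 0.0064, against -0.0024 over all units tested. Sturkopf, which encodes a lipid droplet protein, stood at 0.14 ± 0.055 (SE) (limma adjusted p = 0.54). Its array mean was 0.17 ± 0.13 (SD, n = 21) in Indy206 flies and 0.018 ± 0.21 (SD, n = 21) in controls. Nt5a, a nucleotidase gene next to Ctr9 on its other side, stood at 0.15 ± 0.077 (SE) (limma adjusted p = 0.76), and Acat2, an acetyl-CoA acetyltransferase gene beyond it, at 0.16 ± 0.084 (SE) (limma adjusted p = 0.81). ND-ACP, the mitochondrial acyl carrier protein gene, stood at -0.15 ± 0.061 (SE) (limma adjusted p = 0.60). The remaining 7, CG32333, Rabex-5, scf, CG9184, msd1, msd5 and CG2211, lay between -0.093 and 0.024.

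In the gene table the ends of Ctr9 overlap those of Nt5a and sturkopf. Over the 42 arrays Ctr9 correlated with Nt5a at -0.042 and with sturkopf at 0.19. The spots of Ctr9 and Herc4 carry consecutive numbers, 5137 and 5138, and where they lie on the slide was not analysed here. The next spots by number, cue below and ND-ACP above, correlated with Ctr9 at -0.14 and -0.32 and with Herc4 at 0.23 and -0.10.

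**Figure D4:**
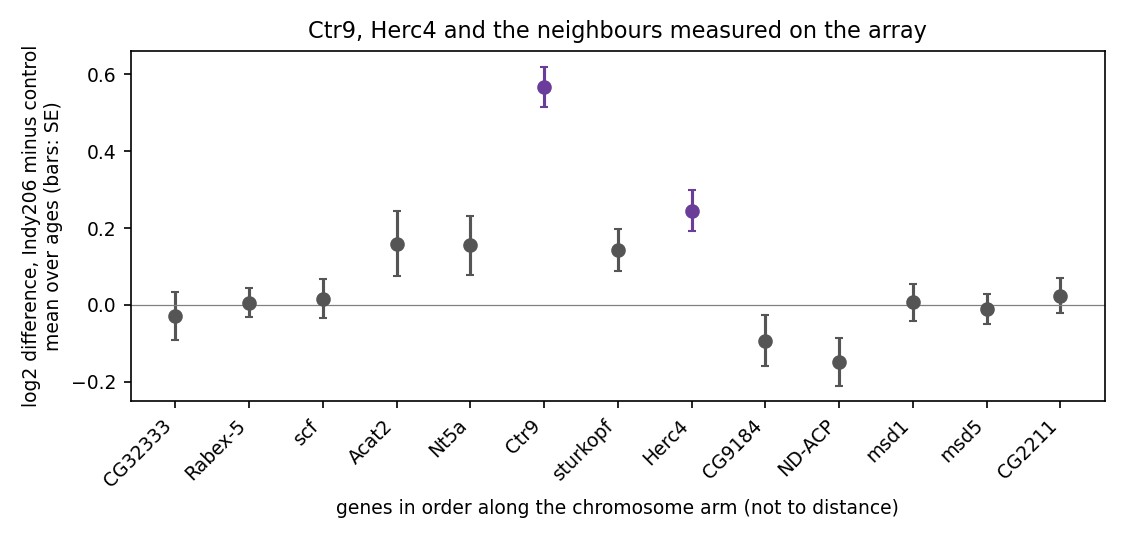
Log2 difference of Indy206 minus control, averaged over ages, for Ctr9, Herc4 and 11 neighbours in their order along the chromosome arm, with bars for the SE. Ctr9 at 0.57 and Herc4 at 0.24 stand above the neighbours, which lie between -0.15 and 0.16, with sturkopf between the pair at 0.14.

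With age, the neighbours went both ways. Over both genotypes 2 rose and 6 fell, beside 10.1% of all units called rising and 15.1% falling, with a median slope of -0.025 per 10 days, against -0.0031 over all units. Rabex-5, a gene for an exchange factor of early endosomes, rose by 0.040 (limma adjusted p = 0.00013) and scf, a gene for a calcium-binding protein, by 0.078 (limma adjusted p = 7.6e-07). ND-ACP had a slope of -0.12 (limma adjusted p = 4.6e-09) and Nt5a one of -0.085 (limma adjusted p = 8.3e-05), and the call of Nt5a was lost with the marker covariate. In all, 3 neighbours were called with that covariate and 5 without day 5, against 8 with neither. Over all 19077 units these counts were 1687, 2938 and 4798, so the background fell as well. Of 50 single genes called for genotype, 9 lay on the arm of Ctr9 and Herc4, or 18% of the called genes, beside 19.7% of the genes tested. The 9 include Ctr9 and Herc4 themselves, which were chosen for this contrast, so the share is a description and was not tested.

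All 4 other subunits of the Paf1 complex were measured, and limma called none between genotypes (0 had an unadjusted p under 0.05). A count of 0 among 4 genes is near the 0.351% of all units called. The Paf1 homologue atms stood at -0.00081 ± 0.045 (SE) (limma adjusted p = 1.00), with an array mean of 0.18 ± 0.23 (SD, n = 21) in Indy206 flies and 0.16 ± 0.17 (SD, n = 21) in controls. The Cdc73 homologue hyx stood at -0.053 ± 0.046 (SE) (limma adjusted p = 0.95), the Leo1 homologue Atu at 0.038 ± 0.035 (SE) (limma adjusted p = 0.96) and Rtf1 at 0.043 ± 0.054 (SE) (limma adjusted p = 0.98). Ctr9 was chosen for this contrast, so its distance from the other subunits is a description and was not tested.

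With age 2 of these 4 subunits rose over both genotypes, beside 10.1% of all units. The slope was 0.051 ± 0.0088 (SE) per 10 days for atms (limma adjusted p = 5.3e-05) and 0.065 ± 0.0090 (SE) for hyx (limma adjusted p = 1.8e-06). Atu, at -0.0043, and Rtf1, at 0.00082, were not called (limma adjusted p = 0.72 and 0.97). Ctr9, at 0.031, lay between these pairs. Neither atms nor hyx lost its call under any alternative run.

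Among 24 measured factors of elongation and of the histone marks placed with it, limma called none for genotype, a count near the 0.351% of all units. Of the 24, 3 had an unadjusted limma p under 0.05, beside 1258 of all 19077 units. The median difference was -0.0017, against -0.0024 over all units. The smallest p-values were those of ash2, a subunit of histone methyltransferase complexes, at -0.20 ± 0.053 (SE) (limma adjusted p = 0.13) and Ssrp, a subunit of the histone chaperone FACT, at 0.16 ± 0.047 (SE) (limma adjusted p = 0.20). A count of 1 was reached without Indy206 day 40 replicate 1 or without control day 10 replicate 2. With single arrays left out, 46 to 95 of all 19077 units were called for genotype. With age 4 rose and 3 fell, a share near the 25.2% of all units called. The count of 7 was 2 with the marker covariate, 3 without day 5, and 4 without Indy206 day 5 replicate 1 or without control day 5 replicate 3. Over all 19077 units it was 1687 with the covariate and 2938 without day 5, against 4798. It ran from 4006 to 5128 with single arrays left out. Ssrp rose by 0.12 per 10 days (limma adjusted p = 4.0e-11) and dre4, the other FACT subunit, by 0.092 (limma adjusted p = 7.3e-06). CycT, the cyclin of the elongation kinase P-TEFb, had a slope of -0.056 (limma adjusted p = 0.00034), and its call was lost with the marker covariate.

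**Figure D5:**
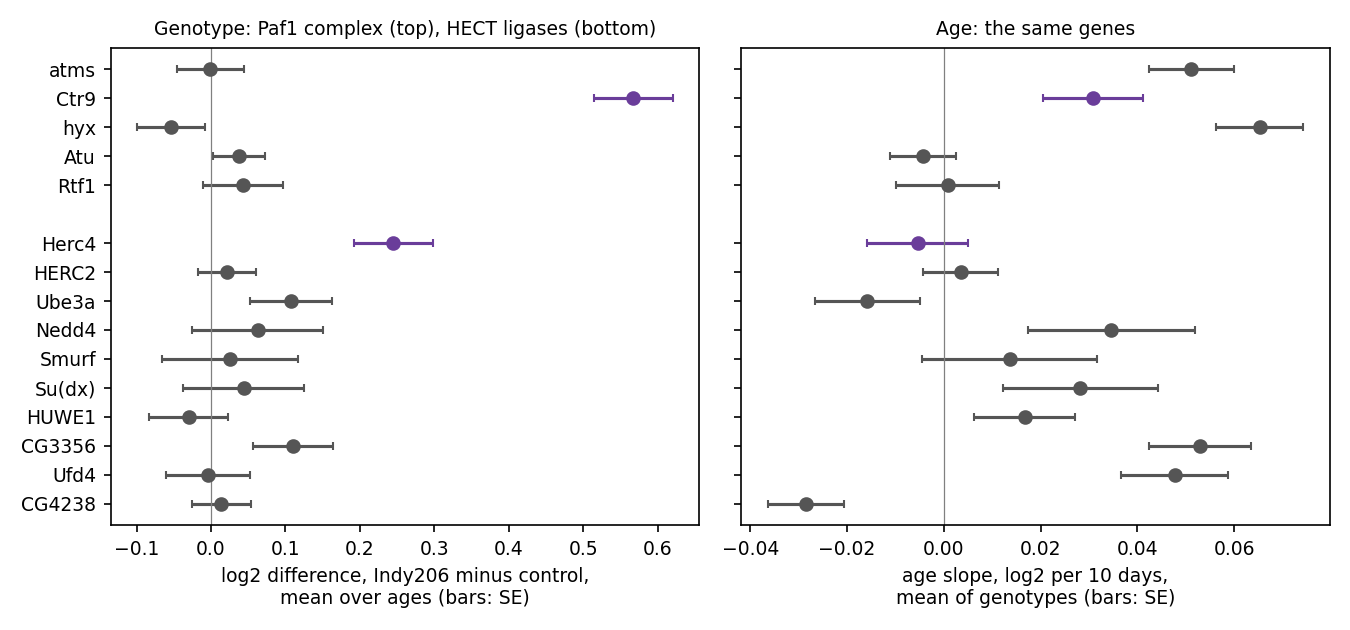
Paf1 complex genes (top) and HECT ubiquitin ligase genes (bottom), with the log2 difference of Indy206 minus control averaged over ages (left) and the age slope per 10 days averaged over genotypes (right), bars for the SE. On the left Ctr9 at 0.57 and Herc4 at 0.24 lie to the right of all other genes shown, and on the right hyx has the steepest slope, at 0.065.

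Herc4 was likewise the HECT ligase gene with the largest measured difference between genotypes, as its choice implies. Of 9 others measured, limma called none, again near the 0.351% of all units. An unadjusted limma p under 0.05 was seen for 1 of the 9, beside 1258 of all 19077 units. The median of the 9 was 0.025, against -0.0024 over all units. CG3356 stood at 0.11 ± 0.054 (SE) (limma adjusted p = 0.75) and Ube3a, the homologue of the Angelman syndrome ligase gene, at 0.11 ± 0.055 (SE) (limma adjusted p = 0.79), higher in Indy206 flies at all 8 ages. Indy206 means above the control means at all 8 ages were seen in 0.624% of units. HERC2, the other HERC gene of the list, stood at 0.021 ± 0.039 (SE) (limma adjusted p = 0.98). With age 2 of the 9 rose, CG3356 by 0.053 per 10 days (limma adjusted p = 0.00034) and Ufd4 by 0.048 (limma adjusted p = 0.0018). CG4238 fell by 0.028 per 10 days (limma adjusted p = 0.0080), a call lost with the marker covariate, and these 3 calls of 9 stand beside 25.2% of all units. Of 5 other measured genes with RCC1 repeats limma called none for genotype (0 with an unadjusted p under 0.05, median -0.012), and hiw, a ubiquitin ligase gene of neurons, fell with age by 0.020 per 10 days (limma adjusted p = 0.0068), a call lost when its spots were tested singly.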

How the data were processed

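RNA of 42 samples was measured on two-colour arrays, with the sample in Cy5 and the reference in Cy3, per the labels. The authors deposited 1 log2 ratio per spot and array for 20000 spots, processed with limma, per the submitters' processing notes. How background was corrected, and how arrays were normalized or filtered, is not given in the sources used here. Both base and direction, sample over reference, are likely, from the use of limma and the dyes. Array medians ran from -0.014 to 0.0019, and no scaling was added. Signal over background was not analysed here, and the number of arrays limits the precision.

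Spots of 1 gene were averaged, which gave 19077 units. Gene symbols (10823 of 10827 spots matched) and gene order came from a RefSeq table (assembly Release 6). limma 3.58.1 in R 4.3.3 was fitted to 16 group means with 26 residual degrees of freedom, and p-values were adjusted by Benjamini-Hochberg over all units and called under 0.05. The model was tested on simulated data. Alternatives were other scalings, weights, units and age scales, the replicate number as a block, a marker covariate, and leaving out arrays or day 5. Replicates are separate sets of flies. Genes named are the members, Indy, the 5 genes most correlated with each member on 2 measures, the 5 measured neighbours on each side, and up to 4 genes per list with the smallest p. Members and lists were chosen with earlier results of these data known. Figures used matplotlib 3.10.9.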

Additional observations from a re-analysis of the deposited data

How the results depend on the processing

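Other than leaving out single arrays, 11 alternatives were run. Of 216 values of the main results, 206 kept their direction and, where tested, their side of the threshold. Genotype differences, which were not tested, counted as kept if they moved by less than the residual SD. Some estimates could not move, such as those with single-gene units only, or the genotype differences and F tests with age as log2 of day. The count therefore overstates how far the results were tried. The Ctr9 mean age slope was 0.010 without day 5, 0.025 with the marker covariate and 0.011 without the 2 Indy206 day 5 arrays, the arrays of lowest correlation, and was not called in any of these. The slope in Indy206 flies was 0.015, 0.047 and 0.015 in the same order, also not called, and the F test within Indy206 gave 3.6 without day 5 and 3.5 without those arrays, neither called. The Herc4 mean slope, -0.0054 and not called, changed sign to 0.0043 with the marker covariate and to 0.00040 per doubling of age with age as log2 of day. The correlation of Ctr9 with Indy in Indy206 flies was 0.13 with quantile normalization, against -0.35. The cause of these changes was not tested. The genotype difference of Ctr9 ranged from 0.54 to 0.65 and that of Herc4 from 0.24 to 0.26 over these alternatives.

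With each array left out in turn, the genotype difference ranged from 0.54 to 0.60 for Ctr9 and from 0.22 to 0.27 for Herc4. The Ctr9 slopes ranged from 0.024 to 0.037 for the mean, from -0.0054 to 0.020 in controls and from 0.050 to 0.058 in Indy206. The Herc4 slope in Indy206 ranged from -8.3e-05 to 0.013. The correlation of Ctr9 with Herc4 ranged from 0.19 to 0.44 in Indy206 and from 0.043 to 0.46 in controls, and that of Herc4 with Indy within groups from -0.080 to 0.28. Arrays with the same replicate number were not treated as paired, since the labels give no link. Deviations correlated above 0.1 in 13 of 19 such pairs, from -0.35 at day 30 to 0.62 at day 50. These values are not independent, since deviations within a group cancel out, and both pairs at day 10 gave 0.10. Whether such pairs shared an effect at single ages was not tested. With the replicate block the Ctr9 slope in Indy206 was 0.055 and its mean F test 5.53, and no call of Ctr9 or Herc4 changed. Units called with the marker covariate numbered 1687 for the mean slope, against 4798 without it, and without day 5 they numbered 2938. For the F test of age the counts were 2437, 2722 and, with array weights, 6769, against 4373, and within Indy206 792, 1048 and 4851, against 1983. For the slope in Indy206 they were 869 and 1940, against 3702. Without single arrays the genotype by age test called 0 to 36 and the slope difference 0 to 23, the highest without Indy206 day 20 replicate 2 and control day 10 replicate 1. For the genotype by age test they were 0 with the covariate and 5 with quantile normalization, against 2, and for the slope difference 4 with array weights, against 0. Within controls 2387 units were called with array weights and 820 without day 5, against 1319. With quantile normalization 5 other HECT genes were called for age, against 3, and the share of all units called with that normalization is not given here. The correlation of Herc4 with Indy in controls ranged from 0.19 without control day 50 replicate 3 to 0.46 without control day 40 replicate 1 (unadjusted permutation p = 0.046).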
